A study of Mus musculus with 18 samples.

Results

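The colon of mice without interleukin 10 was compared at week 12 and week 8 of life, that is, in later and in early colitis, by sequencing of polyadenylated RNA from distal colon pieces. The comparison takes 6 libraries of the 18 in the series, chosen by genotype and age as labelled: 3 of BALB/c Il10KO mice at week 12 and 3 of BALB/c Il10KO mice at week 8. Each library is 1 mouse, and each mouse was sampled at 1 age. The other libraries are Il10KO mice at weeks 6, 10 and 14 and wild-type BALB/c mice at week 6, 3 of each. No treatment is labelled. The labels name no Cre driver or cell type for the knockout, which all 6 mice share, and no wild-type mouse was taken after week 6, so the course of colitis cannot be told apart from growth and age. The labels give the cage of each mouse: A, B and E at week 12, and B, C and D at week 8, so only cage B held mice of both ages.

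Interleukin 10 is a cytokine through which regulatory T cells and macrophages restrain responses to gut microbes, and it acts on macrophages through STAT3. Mice that lack it develop colitis driven by T helper cells, with loss of crypt architecture, leukocyte infiltration and changes of the epithelium. The gut wall sampled with it holds fibroblasts that lay down collagen, vessels, muscle and the enteric nervous system, so RNA of the whole piece reads all of these at once. In such bulk samples, fewer cells of a type and less RNA per cell cannot be told apart.

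Lipocalin, a protein of inflamed epithelium and neutrophils used as a marker of gut inflammation, was 2574, 444 and 1767 ng/g in the week 12 mice, against 102, 136 and 107 ng/g in the week 8 mice. Every week 12 value lay above every week 8 value. The means were 1595 ± 1075 ng/g at week 12 and 115 ± 18.1 ng/g at week 8 (SD, n = 3 each), a ratio of 13.9. The two-sided exact permutation p was 0.1, the smallest that 3 mice against 3 can give. The labels do not say what material the lipocalin assay used. Its gene, Lcn2, had 8.17, 3.73 and 6.01 CPM at week 12, against 1.32, 4.42 and 2.17 CPM at week 8, with overlapping groups. The log2 fold change of Lcn2 was 1.18 ± 0.55 (adjusted p = 0.168).

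Library totals were 35714545, 27210494 and 29854663 estimated counts at week 12, against 26647696, 30665223 and 27964079 at week 8. RNA integrity numbers were 8.9, 8.6 and 8.8 at week 12, against 9.1, 8.4 and 9.3 at week 8. The targeted gene, Il10, had 0 estimated counts in all 6 libraries, and the limit set by such a zero is 3 counts per library, for counting error alone. Il10 had 1, 0 and 3 estimated counts in the wild-type libraries, so its level at this depth is no check of the genotype labels. Across genes, which are not independent replicates, Pearson's r of log2 CPM was 0.974 to 0.981 between week 12 libraries, against 0.955 to 0.964 between week 8 libraries. Week 8 replicate 2 correlated with the week 12 libraries at 0.972 to 0.977, above its correlations of 0.955 and 0.964 with the other week 8 libraries.

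No gene passed an adjusted p of 0.05 in edgeR's quasi-likelihood test over 16176 genes, in either direction. The smallest adjusted p was 0.0729, and 2648 genes were under 0.1. At an unadjusted p under 0.05, 1956 genes (12.1%) were higher and 2857 genes (17.7%) were lower at week 12, together 29.8% of genes, where chance alone would give 808.8 genes. Levels did not overlap between the groups for 2375 genes (14.7%) that were higher and 2660 genes (16.4%) that were lower. The median log2 fold change over all genes was -0.07. Other tools did call genes: DESeq2 called 1120 higher and 994 lower, and voom with a weight per group called 207 higher and 241 lower. On log2(TPM + 1), limma called 207 higher and 3166 lower, with a median over all genes of -0.32. Without week 8 replicate 2, edgeR called 1197 higher and 1668 lower. Values below are therefore given as levels and differences, and a member is called higher or lower by its unadjusted p, to be read against these 12.1% and 17.7%. Levels are CPM, counts scaled to the effective library size, and differences are log2 fold changes ± SE from the edgeR model, in which positive means higher at week 12. That SE rests on the spread of all 15 libraries in the model, not on the 3 mice of a group.

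The difference between the ages varied with transcript length. Across 15890 genes of known length, Spearman's rho between length and log2 fold change was -0.55, given as a description. The median log2 fold change was 0.68 among the 1589 genes with the shortest transcripts and -0.59 among the 1589 with the longest. Transcripts under 600 bases took 6.54%, 5.82% and 4.64% of counts at week 12, against 2.90%, 3.90% and 2.55% at week 8. Transcripts over 5000 bases took 8.10%, 8.81% and 10.6% at week 12, against 15.8%, 11.4% and 14.1% at week 8. Neither share overlapped between the ages. The 3 wild-type libraries had 2.99% to 3.14% of counts on short transcripts. Il10KO week 10 libraries had 5.72%, 5.19% and 2.94%, with RNA integrity numbers of 8.5, 8.7 and 9. Week 14 replicate 1, with 9, had 3.41%, and the 2 week 14 libraries with the lowest RNA integrity had 14.3% and 10.99%. Why the share varied was not tested. Most lists below are also given with an offset that removes the smooth dependence on length within each library, an alternative chosen after the data were seen. With it, 1662 genes (10.3%) were higher and 1631 (10.1%) lower at an unadjusted p under 0.05, together 20.4%, none passed the adjusted threshold, and the median over all genes was -0.0014. With the share of counts on transcripts under 600 bases as a covariate, likewise chosen after the data were seen, 309 genes were higher and 391 lower at an unadjusted p under 0.05, and none passed the adjusted threshold. Under that covariate the log2 fold changes of Nos1, Ephb3, Cdh1, Lcn2, Cxcl1, Cd3d, Ms4a1 and S100a9, whose values follow, changed sign. Their adjusted p in that edgeR fit was 0.993 to 0.997. Because the share did not overlap between the ages, fits with this covariate cannot tell the share apart from age, here and below.

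**Figure D1:**
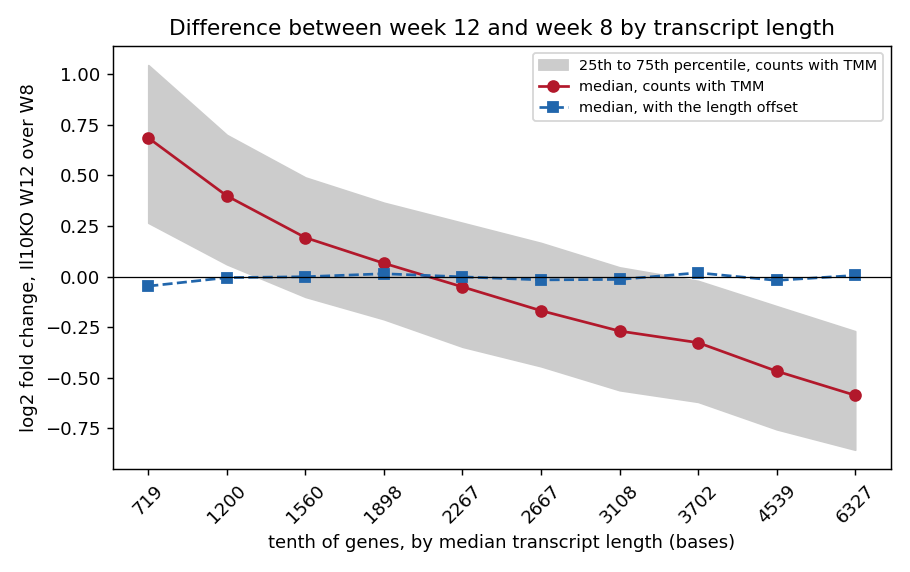
Median log2 fold change of Il10KO week 12 over week 8 (y axis) in 10 equal bins of genes by transcript length (x axis, median length of the bin in bases). Circles are medians from TMM-scaled counts with the 25th to 75th percentile shaded, which run from 0.68 to -0.59, and squares are medians with the length offset, which stay near 0.

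**Figure D2:**
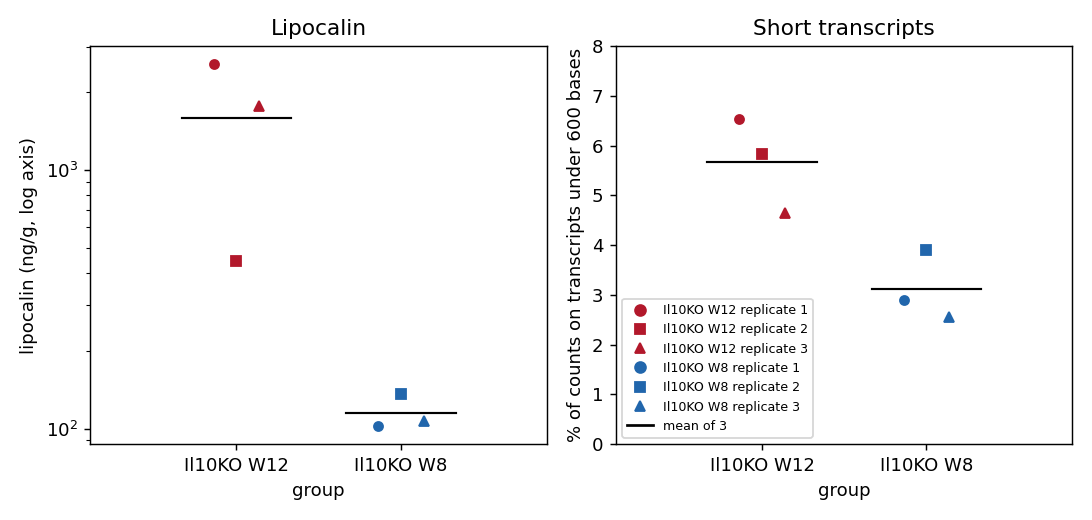
Lipocalin in ng/g on a log axis (left) and the percentage of counts on transcripts under 600 bases (right) in each mouse of Il10KO week 12 and week 8. Symbols are replicates and black lines are means of 3; neither measure overlaps between the ages.

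Collagens and other extracellular matrix genes were lower at week 12, though none passed the adjusted threshold. Of the 21 matrix genes tested, 18 were lower at an unadjusted p under 0.05, none was higher, and all 21 log2 fold changes were negative, with a median of -1.30 against -0.07 over all genes. For 16 of them the groups did not overlap. Matrix transcripts are long, with a median of 5254 bases, and with the length offset 10 of the 21 were lower, with a median of -0.81 against -0.0014 over all genes. The median was -2.07 with cage as a factor and -0.16 with the share of counts on short transcripts as a covariate. Among the 15 libraries of the model, cage D held only week 8 replicate 3 and cage E only week 12 replicate 3. A cage factor fits those libraries exactly, so every value given with it rests on the other libraries. Summed over the list, matrix genes had 1323, 1131 and 1267 CPM at week 12, against 3757, 2612 and 1317 CPM at week 8. DESeq2 called 11 of the 21 lower, and edgeR without week 8 replicate 2 called 4. With that library left out and the length offset applied, edgeR called 0, as did voom with a weight per group over 15 libraries. Week 8 replicate 1 was the highest library, and week 8 replicate 3 lay within the range of week 12.

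Windows of 300 bases around the start sites of Col1a2 and Col3a1 are shown because these fibrillar collagen genes were lower in all week 12 libraries. They were taken from RefSeq on GRCm38.p6. Capitals mark CCAAT or its reverse complement ATTGG and TATAA or its reverse complement TTATA, searched on both strands.
Col1a2, chr6:4505368-4505667, forward strand: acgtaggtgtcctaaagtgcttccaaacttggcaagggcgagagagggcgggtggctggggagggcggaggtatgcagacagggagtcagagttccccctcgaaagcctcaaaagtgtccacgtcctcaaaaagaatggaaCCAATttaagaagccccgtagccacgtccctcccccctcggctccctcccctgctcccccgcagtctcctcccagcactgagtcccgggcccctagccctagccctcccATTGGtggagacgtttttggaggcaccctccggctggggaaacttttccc
Col3a1, chr1:45311288-45311587, forward strand: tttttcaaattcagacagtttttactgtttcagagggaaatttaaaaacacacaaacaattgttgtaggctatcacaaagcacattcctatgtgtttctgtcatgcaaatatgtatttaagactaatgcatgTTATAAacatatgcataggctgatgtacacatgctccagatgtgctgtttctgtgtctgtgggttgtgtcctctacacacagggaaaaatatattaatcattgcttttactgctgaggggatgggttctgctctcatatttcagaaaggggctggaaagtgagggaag
The Col1a2 window holds CCAAT on each strand and no TATAA, whereas the Col3a1 window holds TATAA, where both strands match in 1 overlapping stretch, and no CCAAT. Of all 32851 RefSeq windows, 37.4% hold CCAAT and 24.9% hold TATAA on either strand. Of 16 windows found for 13 of the matrix genes, 5 hold CCAAT and 4 hold TATAA. These matches describe letters and do not show that a factor bound there.

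Col3a1 (ENSMUSG00000026043.18, chromosome 1, 45311538 to 45349706, GRCm38), which encodes type III collagen, had 249.7, 219 and 237 CPM at week 12, against 796, 642 and 262 CPM at week 8. All 3 week 12 libraries were below the lowest week 8 library, though only slightly below week 8 replicate 3. Its log2 fold change was -1.27 ± 0.39 (adjusted p = 0.0767). Col1a1 and Col1a2 encode the chains of type I collagen. Col1a1 had 63.1, 58.1 and 67.6 CPM at week 12, against 203, 204 and 109 CPM at week 8. Col1a2 had 89.7, 76.7 and 106 CPM at week 12, against 311, 283 and 122 CPM at week 8. In both genes the groups did not overlap and week 8 replicate 3 was the lowest of its age, with log2 fold changes of -1.45 ± 0.50 and -1.40 ± 0.45.

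Lama4, a laminin chain of vessel walls with the smallest p of the list, had 11.1, 12.1 and 13.2 CPM at week 12, against 41.4, 22.2 and 19.95 CPM at week 8. Its log2 fold change was -1.20 ± 0.35 (adjusted p = 0.0742). Lamb1, another laminin chain, had 10.6, 10.3 and 13.8 CPM at week 12, against 54.99, 26.5 and 18.5 CPM at week 8. Col4a1, a type IV collagen chain, had 41.1, 28.7 and 38.1 CPM at week 12, against 132, 89.3 and 65.7 CPM at week 8. All of these were lower in every week 12 library. Fn1, which encodes fibronectin, had 64.3, 39.1 and 60.1 CPM at week 12, against 171, 107 and 116 CPM at week 8, again without overlap. The 3 members that did not reach an unadjusted p of 0.05 were Sparc, Lum and Dcn, with log2 fold changes of -0.51 ± 0.32, -0.64 ± 0.41 and -0.34 ± 0.40. Lum and Dcn encode small proteoglycans that bind collagen.

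Among matrix metalloproteinases and their inhibitors, 3 of 15 were lower and none higher, a share close to the 17.7% lower over all genes. Of the 15, 11 had negative log2 fold changes and 4 positive, up to 0.87. With the length offset 2 were lower, and the list median moved from -0.29 to -0.0044. Mmp15, a membrane-bound protease, had 90.2, 73.1 and 99.7 CPM at week 12, against 156, 131 and 176 CPM at week 8. Without week 8 replicate 2, the length offset moved its log2 fold change from -0.92 to -0.29. Mmp14, which activates Mmp2, had 34.6, 31.7 and 46.7 CPM at week 12, against 79.8, 62.4 and 55.5 CPM at week 8. Neither gene overlapped between the ages. Mmp2 had 29.2, 19.9 and 25.04 CPM at week 12, against 102, 44.3 and 24.4 CPM at week 8, where week 8 replicate 3 fell inside the week 12 range.

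Many genes of enteric neurons and glia were lower at week 12 as well, at low levels. Of 16 tested, 8 were lower, none was higher, and the median log2 fold change was -1.03. With the length offset 8 were lower and the median was -0.90. The median was -0.14 with the share of counts on short transcripts as a covariate and -0.61 without week 8 replicate 1. Without week 8 replicate 2, edgeR called 8 of the 16 lower at the adjusted threshold. With that library left out and the length offset applied, it called 0, and voom with a weight per group over 15 libraries called 1. Nos1, which makes nitric oxide in inhibitory motor neurons, had 1.67, 1.38 and 1.87 CPM at week 12, against 9.88, 3.31 and 7.903 CPM at week 8. All week 12 values lay below all week 8 values, with a log2 fold change of -2.09 ± 0.58 (adjusted p = 0.0729). Prph, a neuronal intermediate filament, had 3.26, 2.502 and 3.87 CPM at week 12, against 13.1, 5.55 and 7.63 CPM at week 8. Ret, the receptor for glial cell line-derived neurotrophic factor, had 3.17, 3.21 and 5.11 CPM at week 12, against 10.96, 5.68 and 6.74 CPM at week 8. Neither gene overlapped between the ages. Sox10, a glial transcription factor, had 1.205, 1.12 and 1.07 CPM at week 12, against 4.21, 1.64 and 1.63 CPM at week 8. Among other glial genes, Gfap had a log2 fold change of 0.41 ± 0.38 and S100b of 0.72 ± 0.42, neither at an unadjusted p under 0.05.

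Endothelial genes were lower in 6 of 14 cases and higher in none, with a median of -0.73. With the length offset 3 were lower and the median was -0.45. Without the offset it was -0.23 when week 8 replicate 1 was left out, -1.33 with cage as a factor and -0.22 with the short-transcript share as a covariate. Cdh5, the cadherin of endothelial junctions, had 4.26, 4.705 and 6.28 CPM at week 12, against 20.6, 11.4 and 6.08 CPM at week 8. Vwf, von Willebrand factor, had 5.32, 4.44 and 5.64 CPM at week 12, against 18.9, 9.4 and 7.98 CPM at week 8. Vwf did not overlap between the ages, and in Cdh5 week 8 replicate 3 lay inside the week 12 range. Smooth muscle genes included 1 lower gene of 14, Cald1, and their median was -0.38. With the length offset none was lower and the median was -0.27. Without the offset it was -0.11 when week 12 replicate 2 was left out and -0.10 when week 8 replicate 1 was. It was 0.40 with the short-transcript share as a covariate. Their summed level was 8484, 4560.4 and 5323 CPM at week 12, against 8536, 6296 and 4832 CPM at week 8, so the muscle content read by these genes overlapped between the ages.

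**Figure D3:**
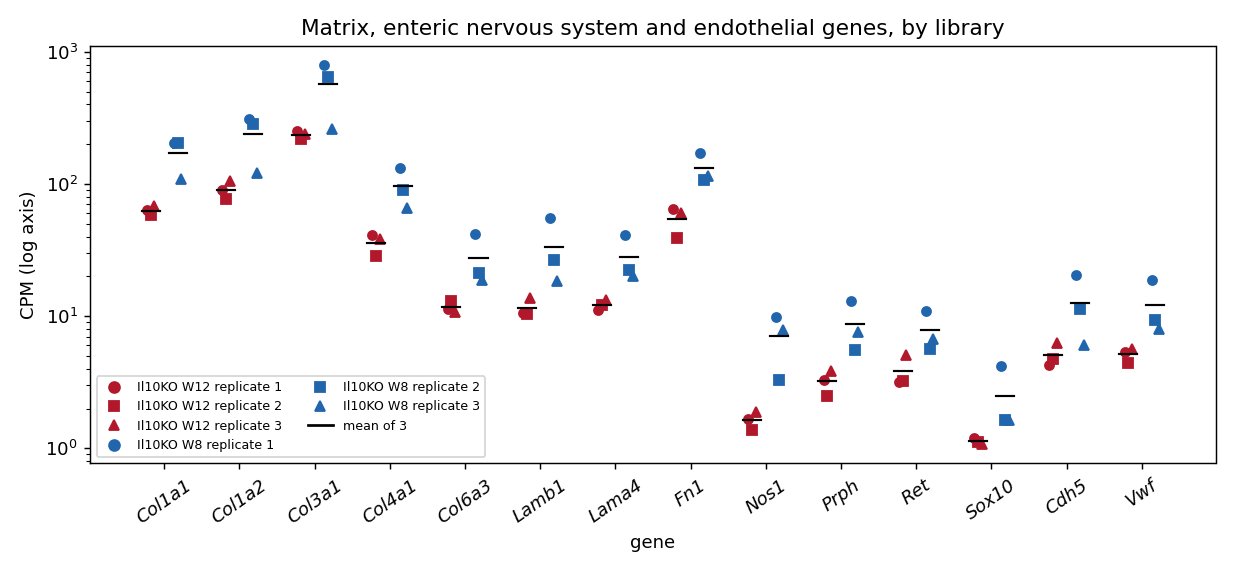
CPM on a log axis for matrix (Col1a1 to Fn1), enteric neuron and glia (Nos1 to Sox10) and endothelial genes (Cdh5, Vwf) in the 3 Il10KO week 12 and 3 week 8 libraries. Symbols are replicates and black lines are means; week 8 replicate 1 is the highest library for every gene except Col1a1, in which replicate 2 is, and the week 12 libraries lie close together.

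Set beside the other ages, the mean log2 CPM of the matrix list was 4.99, 4.78 and 5.01 at week 12, against 6.75, 6.02 and 5.29 at week 8. It was 7.49, 6.98 and 7.14 in Il10KO mice at week 6 and 4.27, 4.86 and 6.17 at week 10. Week 12 thus lay within the wide range of week 10, and week 8 lay between week 6 and week 12 in each of its libraries. The enteric neuron and glia list had 1.23, 0.87 and 0.96 at week 12, against 2.36, 1.37 and 1.62 at week 8.

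Some CC chemokines, which draw monocytes, T cells and dendritic cells, were higher at week 12, though none passed the adjusted threshold. Of 16 tested, 7 were higher and none lower at an unadjusted p under 0.05, and all 16 log2 fold changes were positive, with a median of 0.94. These transcripts are short, with a median of 837 bases, and with the length offset 5 were higher and the median was 0.46. The median was 1.57 with cage as a factor, and it turned to -0.24 with the share of counts on short transcripts as a covariate. Ccl25, a chemokine for gut-homing T cells made mainly by the small intestine, had 4.32, 7.09 and 7.05 CPM at week 12, against 2.19, 2.93 and 1.82 CPM at week 8. The log2 fold change was 1.41 ± 0.36 (adjusted p = 0.0729). Ccl17, a ligand of CCR4, had 2.73, 1.31 and 0.935 CPM at week 12, against 0.383, 0.599 and 0.271 CPM at week 8. Ccl7, a monocyte chemokine, had 32.5, 16.7 and 5.54 CPM at week 12, against 0.8, 5.33 and 4.69 CPM at week 8. Ccl2, which recruits monocytes through CCR2, had 7.64, 5.64 and 4.37 CPM at week 12, against 0.939, 3.47 and 1.98 CPM at week 8. None of these overlapped between the ages, although Ccl7 in week 12 replicate 3 stood only just above 2 of the week 8 libraries. Ccl20, which attracts CCR6-bearing lymphocytes to the epithelium, had 22.9, 33.8 and 18.3 CPM at week 12, against 10.6, 16.5 and 10.2 CPM at week 8.

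Neutrophil genes gave 2 higher members of 15 and none lower, a share close to the 12.1% over all genes. With the length offset none of the 15 was higher or lower, and the list median was 0.24. Summed over the list, they had 388, 287 and 490 CPM at week 12, against 366, 542 and 688 CPM at week 8. S100a8 and S100a9 encode the chains of calprotectin. S100a8 had 14.7, 7.69 and 3.81 CPM at week 12, against 0.209, 1.32 and 0.814 CPM at week 8. S100a9 had 20.3, 10.98 and 3.91 CPM at week 12, against 0.209, 2.52 and 0.659 CPM at week 8. Every week 12 library was above every week 8 library in both genes, with log2 fold changes of 3.46 ± 1.42 and 3.35 ± 1.35. With the short-transcript share as a covariate S100a9 turned to -1.95, and the median of the neutrophil list, 0.55 in the model without it, turned to -1.95. That list median was 0.27 without week 8 replicate 1 and 1.29 without week 8 replicate 2. The other neutrophil genes, including Cxcr2 with 0.68 ± 0.85 and Mpo with 1.04 ± 0.87, did not reach an unadjusted p of 0.05. Of the 15, 11 had positive log2 fold changes and 4 negative, down to -0.59. Of the neutrophil chemokines, Cxcl1 had 3.85, 3.099 and 2.37 CPM at week 12, against 1.25, 1.67 and 0.736 CPM at week 8.

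Among antimicrobial and acute phase genes, 3 of 21 were higher and 2 lower. With the length offset 2 were higher and 2 lower, and the list median moved from 0.70 to 0.14. Saa1, an acute phase protein of the epithelium and liver, had 3029.6, 1381 and 1185 CPM at week 12, against 421, 861 and 221 CPM at week 8. The difference on the log2 scale was 1.90 ± 0.50 (adjusted p = 0.0729), and the groups did not overlap. Reg3g, a lectin that kills Gram-positive bacteria, had 7.08, 4.14 and 2.67 CPM at week 12, against 0.139, 1.39 and 0.542 CPM at week 8. In contrast, Duox2, an epithelial source of hydrogen peroxide, had 135, 135 and 215 CPM at week 12, against 254, 219 and 436 CPM at week 8. Dmbt1, a mucosal scavenger protein, had 1659.9, 1225 and 2277 CPM at week 12, against 2706, 3569 and 3601 CPM at week 8. Both were lower in all week 12 libraries.

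Genes induced by interferon-gamma did not separate the ages. Of 22 tested, none had an unadjusted p under 0.05, and the median log2 fold change was 0.06. It was 0.17 with the length offset and 2.27 with cage as a factor. Without single libraries it ranged from -0.38, without week 12 replicate 2, to 0.85, without week 8 replicate 3. Ido1, which degrades tryptophan, had 154, 195 and 60.97 CPM at week 12, against 8.42, 119 and 425 CPM at week 8. Cxcl9, a ligand of CXCR3, had 60.7, 87.7 and 14.7 CPM at week 12, against 14.4, 50.9 and 91.2 CPM at week 8. The week 8 libraries spanned a wider range than the week 12 libraries in Ido1, whereas in Cxcl9 the ranges were nearly the same. At week 8, replicate 1 was lowest and replicate 3 highest in both genes. Type I interferon inducible genes (0 of 19) and MHC class II genes (0 of 10) likewise had no member at that threshold. Their medians were 0.10 and 0.38, or 2.02 and 1.70 with cage as a factor. All 10 MHC class II log2 fold changes were positive, but with the length offset their median was -0.0025. With 3 mice a group and this spread, no difference in these lists was detected, which does not show that the ages were alike.

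B cell genes overlapped between the ages in sum. All 15 B cell genes had positive log2 fold changes, with a median of 0.59, but none had an unadjusted p under 0.05. The median was 0.30 to 1.21 without single libraries, highest without week 8 replicate 2, and turned to -0.61 with the short-transcript share as a covariate. The B cell median was 0.69 with the length offset. Their summed level was 185, 563 and 608 CPM at week 12, against 225, 496 and 131 CPM at week 8. Week 12 replicate 1 was in the range of week 8, and week 8 replicates 1 and 2 were in the range of week 12. Ms4a1, the B cell antigen CD20, had 25.3, 109 and 102 CPM at week 12, against 19.4, 61.5 and 14.4 CPM at week 8. Cd3d, a chain of the T cell receptor complex, had 12.6, 16.6 and 10.4 CPM at week 12, against 2.71, 10.8 and 1.86 CPM at week 8 and was the 1 higher T cell gene of 20. Without week 8 replicate 2, 8 of the 20 T cell genes passed the adjusted threshold in edgeR as higher, with a median of 1.04 against 0.37 with all libraries. With that library left out and the length offset applied, 1 of the 20 passed, with a median of 0.99. The T cell median turned to -0.43 with the short-transcript share as a covariate. It was 0.28 with the length offset, under which 1 T cell gene was higher. Macrophage genes were lower in 5 of 20 cases and higher in none, with a median of -0.17. Of the 20, 13 log2 fold changes were negative and 7 positive, up to 1.16, and the groups overlapped in every gene. Their summed level was 1634, 2595 and 1756 CPM at week 12, against 1058, 1921 and 654 CPM at week 8, so the sum did not fall with the median. Without week 8 replicate 2 the macrophage median turned to 0.22, and edgeR called 1 of the 20 higher and none lower at the adjusted threshold. Csf1r, the receptor for colony-stimulating factor 1, had 25.2, 26.2 and 35.7 CPM at week 12, against 77.5, 62.9 and 26.8 CPM at week 8, where week 8 replicate 3 fell inside the week 12 range. With the length offset 1 macrophage gene was lower.

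Complement genes were lower in 6 of 13 cases and higher in none, with a median of -0.78. Under the length offset 3 were lower and the median was -0.49. Without the offset the median was -0.51 when week 8 replicate 2 was left out. Serping1, the C1 inhibitor, had 71.1, 68.1 and 66.5 CPM at week 12, against 148, 129.7 and 76.1 CPM at week 8. C3, the central component, had 84.7, 93.5 and 110.4 CPM at week 12, against 169.7, 256 and 171 CPM at week 8. Neither overlapped between the ages.

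Of 14 genes of the IL-10 receptor and STAT3 pathway, 5 were lower and none higher, with a median of -0.17. Of the 14, 9 log2 fold changes were negative and 5 positive. These transcripts are long, with a median of 3573 bases. After the length offset 2 were lower and the median was -0.0097, or 0.14 without week 8 replicate 2 as well. Il22ra1, the epithelial receptor chain for interleukin 22, had 31.1, 26.1 and 24.04 CPM at week 12, against 42.9, 44.8 and 50.8 CPM at week 8. Stat3 had 99.6, 91.2 and 130.4 CPM at week 12, against 174, 141 and 198 CPM at week 8. Both were lower in all week 12 libraries. Jak1, a kinase bound to these receptors, had 82.5, 82.03 and 135 CPM at week 12, against 201, 131 and 182 CPM at week 8, with week 12 replicate 3 above week 8 replicate 2.

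Several genes of glucose uptake and glycolysis were lower at week 12, though none passed the adjusted threshold with all libraries in edgeR. Of 18 hypoxia and glycolysis genes, 7 were lower and none higher, with a median of -0.28. The count changed little with the length offset, under which 6 were lower, with a median of -0.14. Without week 8 replicate 2, edgeR called 5 of the 18 lower at the adjusted threshold. With that library left out and the length offset applied, edgeR called 1 lower. DESeq2 and voom with a weight per group each called 4 lower over the 15 libraries. The list median was -0.46 without week 8 replicate 1 and -0.14 without week 12 replicate 2 or without week 8 replicate 3. Slc2a1, the glucose transporter GLUT1, had 119, 83.9 and 116 CPM at week 12, against 217, 158 and 199.9 CPM at week 8. This gave a log2 fold change of -0.85 ± 0.19 (adjusted p = 0.0729). Eno1, an enolase, had 240.1, 205 and 282 CPM at week 12, against 377, 401 and 632 CPM at week 8. The log2 fold change was -0.95 ± 0.23, and -0.98 with the length offset. Hk1, a hexokinase, had 92.5, 74.9 and 118 CPM at week 12, against 240.0, 166 and 268 CPM at week 8, and Pfkp, a phosphofructokinase, had 148, 132 and 156 CPM at week 12, against 194, 245 and 345 CPM at week 8. In these 4 genes the groups did not overlap. Eno1 shares sequence with near-identical copies, so its counts are less certain.

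Epithelial identity genes gave 6 lower members of 12 and none higher. Under the length offset 5 were lower and 1, Cdx2, was higher. Cdh1, which encodes E-cadherin, had 495, 481 and 630.1 CPM at week 12, against 1046, 719 and 1417 CPM at week 8. Krt8, a keratin of simple epithelia, had 4026, 3457 and 3722 CPM at week 12, against 4358, 6038 and 8141 CPM at week 8. Both were lower in every week 12 library. The sum over the list was 11199, 9873 and 10737 CPM at week 12, against 11369, 15094 and 19296 CPM at week 8, with week 12 replicate 1 and week 8 replicate 1 close to each other.

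Crypt stem cell and Wnt target genes had negative log2 fold changes in all 17 cases, with 4 lower at an unadjusted p under 0.05 and a median of -0.47. After the length offset 2 were lower and the median was -0.14. Without the offset the median was -0.26 when week 12 replicate 1 was left out, -0.27 when week 12 replicate 2 was and -0.29 when week 8 replicate 1 was. It was -0.78 with cage as a factor and turned to 0.34 with the short-transcript share as a covariate. Lgr5, the receptor that marks crypt base stem cells, had 1.205, 2.09 and 2.97 CPM at week 12, against 8.84, 3.44 and 7.17 CPM at week 8. Ephb3, a guidance receptor of the crypt, had 28.1, 25.2 and 27.9 CPM at week 12, against 60.9, 37.4 and 49.8 CPM at week 8. Neither overlapped. Of 22 proliferation genes 5 were lower and 2 higher. With the length offset 4 were lower and none higher. Mki67, the Ki-67 antigen, had 37.8, 51.6 and 73.03 CPM at week 12, against 171, 56.1 and 206 CPM at week 8, where week 8 replicate 2 lay inside the week 12 range. Pcna, the DNA polymerase clamp, had 153, 177 and 153 CPM at week 12, against 84.4, 126 and 136 CPM at week 8, higher in all week 12 libraries.

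Of 16 goblet cell genes, 3 were higher and none lower, but 10 log2 fold changes were negative and the list median was -0.22. With the length offset none was higher, 1 was lower and the median was -0.27. Tff3, a trefoil peptide secreted with mucus, had 1951, 1653 and 1243 CPM at week 12, against 742, 691 and 861 CPM at week 8. The difference on the log2 scale was 1.08 ± 0.25, and 0.06 with the length offset. Spink4 and Agr2 behaved alike, with 1.13 ± 0.30 and 0.73 ± 0.28, and 0.06 and 0.01 with the offset. Muc2, the main secreted mucin with a long transcript, had 71.9, 70.01 and 92.3 CPM at week 12, against 115, 48.3 and 183 CPM at week 8, and the groups overlapped. Of 13 mitochondrially encoded genes, 7 were higher, with a median of 0.59, or 0.02 with the offset. Their summed level was 70899, 78720.3 and 86441 CPM at week 12, against 59043, 30239 and 53335 CPM at week 8, with week 8 replicate 2 the lowest library. Without that library the median was 0.32, and edgeR called none of the 13 at the adjusted threshold.

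The 5 genes with the smallest p in each direction are given as values, all with an adjusted p of 0.0729. Lars2, the mitochondrial leucyl-tRNA synthetase (ENSMUSG00000035202.8, chromosome 9, 123366927 to 123462666, GRCm38), had 3045, 1663 and 1094 CPM at week 12, against 289, 235 and 120.2 CPM at week 8. This gave a log2 fold change of 3.17 ± 0.49, and 3.55 with the length offset. Of its estimated counts, 98.4%, 96.6% and 94.5% at week 12 lay on 1 transcript of 3756 bases, Lars2-209, against 78.4%, 70.7% and 36.1% at week 8. Whether the reads on that transcript come from the synthetase mRNA was not tested, so these values are estimated counts assigned to Lars2 and not a sure measure of its expression. At week 6, Lars2 averaged 752 ± 323 CPM in Il10KO mice and 1133 ± 453 CPM in wild-type mice (SD, n = 3 each), so week 8 was the lowest of these ages. Pla2g5, a secreted phospholipase A2, had 50.04, 37.8 and 30.1 CPM at week 12, against 7.93, 14.4 and 7.94 CPM at week 8. The log2 fold change was 1.96 ± 0.31, and 1.60 with the length offset.

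The other genes higher at week 12 were Ndufaf5, an assembly factor of respiratory complex I, with 1.25 ± 0.24, Dtymk, a thymidylate kinase, with 0.95 ± 0.18, and Tceal9 with 0.85 ± 0.16. Without week 8 replicate 2, the length offset moved Ndufaf5 from 1.38 to 0.81, Dtymk from 1.07 to 0.38 and Tceal9 from 0.93 to 0.24. On the lower side, Lama3, a laminin chain of the epithelial basement membrane, had 19.6, 27.3 and 18.6 CPM at week 12, against 69.9, 56.1 and 68.6 CPM at week 8. The difference on the log2 scale was -1.57 ± 0.27. Add3, a cytoskeletal adducin, had 88.1, 98.6 and 115 CPM at week 12, against 252, 186 and 302 CPM at week 8. Acap2 had a log2 fold change of -0.85 ± 0.15, Arid5b of -1.29 ± 0.24 and Slc25a12, a mitochondrial aspartate-glutamate carrier, of -0.76 ± 0.15. Without week 8 replicate 2, the offset moved Lama3 from -1.67 to -0.90, Acap2 from -0.97 to -0.30 and Arid5b from -1.51 to -0.73. Likewise, Add3 moved from -1.46 to -0.995 and Slc25a12 from -0.80 to -0.72. In all 10 genes the groups did not overlap.

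**Figure D4:**
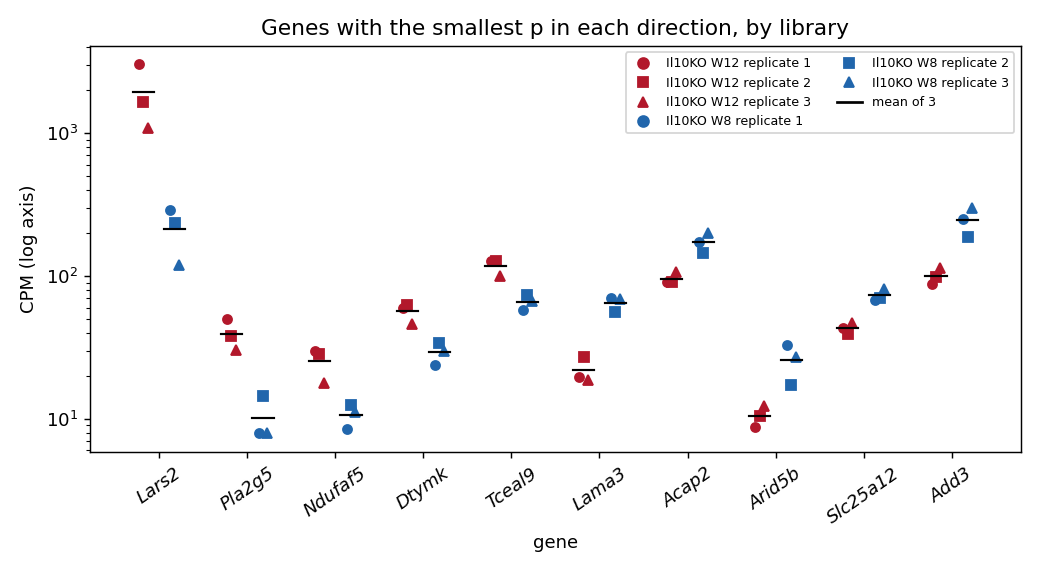
CPM on a log axis for the 5 genes with the smallest p in each direction (Lars2 to Tceal9 higher, Lama3 to Add3 lower at week 12) in the 3 Il10KO week 12 and 3 week 8 libraries. Symbols are replicates and black lines are means; the groups do not overlap in any of these 10 genes.

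**Figure D5:**
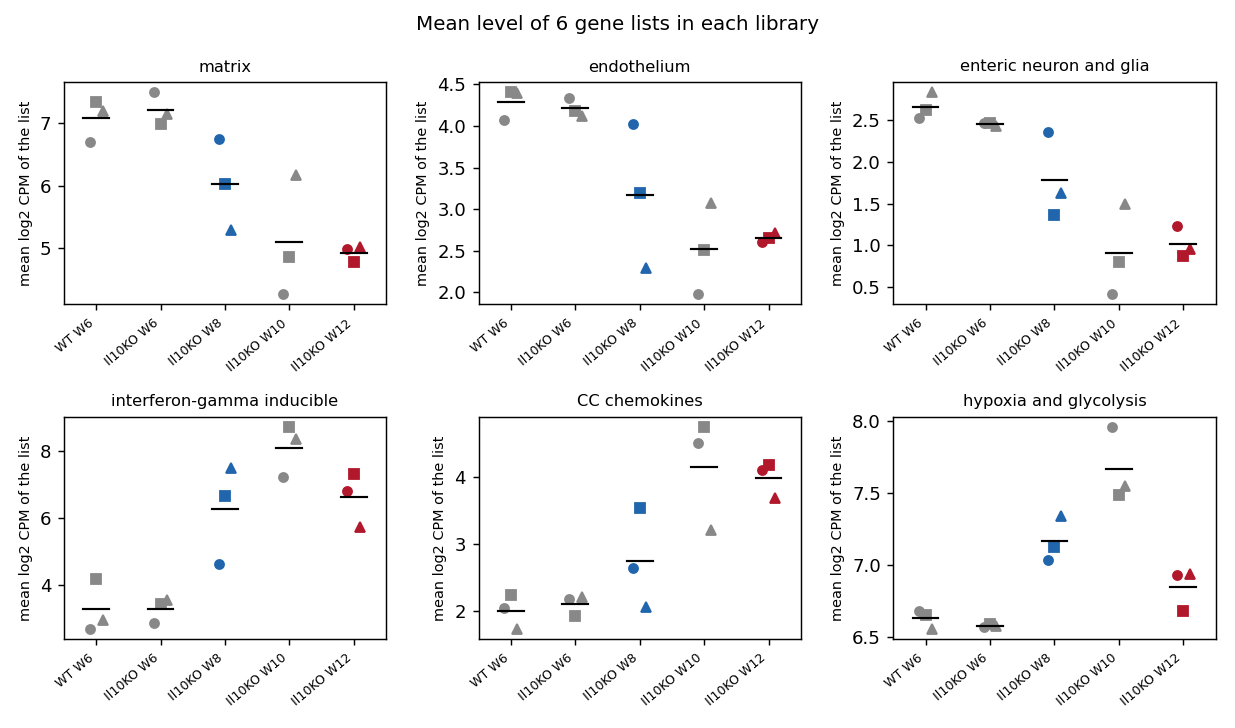
Mean log2 CPM of 6 gene lists (y axis) in each library of wild-type mice at week 6 and Il10KO mice at weeks 6, 8, 10 and 12 (x axis, by age). Points are libraries and black lines are means of 3; the matrix list has 4.99, 4.78 and 5.01 at week 12, below all 3 week 8 libraries, whereas the interferon-gamma list overlaps between these ages.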

How the data were processed

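Polyadenylated RNA of distal colon pieces of about 0.5 cm was sequenced with paired reads of 150 bases, per the labels' protocols. FastQC, kallisto and the build mm10 are named in the submitters' processing notes; versions and the annotation release are not given in the sources used here. The deposited gene table holds expected counts, estimated by the authors per gene symbol for 16321 genes and rounded to whole numbers here. The deposited TPM table, scaled by the authors for transcript length and library total, covers the same genes, and the deposited transcript tables give estimated counts and TPM per library.

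Groups came from the labels. All 15 libraries of wild-type week 6 and Il10KO weeks 6, 8, 10 and 12 entered 1 edgeR 4.0.16 model of 5 group means (filterByExpr, TMM, quasi-likelihood F-test, two-sided, Benjamini-Hochberg over 16176 genes, threshold 0.05). The 3 week 14 libraries were left out because 2 of them have RINs of 6.5 and 5.8. SE is the log2 fold change fitted without a prior count over the square root of F. Levels are TMM-scaled CPM; the log2 CPM used a prior count of 2. Transcript lengths and positions came from GENCODE on GRCm38, with 97.2% of transcripts matched, and a gene's length is the TPM-weighted mean over its transcripts. The length offset is a lowess smooth (span 0.3) of each library on log10 length.

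Members and gene lists were chosen with earlier results of these data known. Genes named by rule are the 5 smallest p in each direction, the smallest p of each of 46 lists, and Lcn2; the other genes given with values were chosen after their values were seen. Lipocalin was compared by an exact permutation test in SciPy 1.17.1. Alternatives were DESeq2 1.42.0, limma 3.58.1 on TPM, voom weights, other scalings, filters and libraries, covariates, and leaving out each library. Counts limit the precision of low genes, and p-values measure the spread between single mice. Steps were tested on simulated data.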

Additional observations from a re-analysis of the deposited data

How the results depend on the processing

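The count of 0 genes past the adjusted threshold held under RLE factors, library size alone, no filter, at least 20 counts in 3 libraries, all 18 libraries, only the 6 compared, voom with 18 libraries, RIN, cage, the share of short transcripts and the length offset. DESeq2 called 1120 higher and 994 lower, limma 207 and 3166 on log2(TPM + 1) and 195 and 3082 on log2(TPM + 0.1), voom with 15 libraries 207 and 241, and the length offset without week 8 replicate 2 called 71 and 76. Leaving out each library gave 0 to 1197 higher and 0 to 1668 lower, the highest without week 8 replicate 2. At an unadjusted p under 0.05 it gave 1342 to 2545 higher and 1202 to 3333 lower. That threshold gave 592 higher and 5869 lower on log2(TPM + 1), 573 and 5847 on log2(TPM + 0.1), 763 and 594 with all 18 libraries, 1631 lower with the length offset, and 309 and 391 with the share of short transcripts as a covariate. TPM moved the median of all genes to -0.32 and -0.45. The cause of these differences was not tested.

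The length offset, alone or without week 8 replicate 2, and the short-transcript covariate were chosen after the data were seen. List medians moved with cage as a factor to 2.27 for interferon-gamma genes, 1.57 for CC chemokines and -2.07 for matrix. They also moved to 2.02 for type I interferon genes and 1.70 for MHC class II genes. The cage factor fits week 8 replicate 3 and week 12 replicate 3 exactly, so these values rest on the other libraries. With the short-transcript share as a covariate the list medians were -0.24 for CC chemokines, -0.16 for matrix, -0.14 for enteric neuron and glia and 0.0064 for epithelial identity. Matrix had -0.62 with the length offset and without week 8 replicate 2, and epithelial identity had -0.79 on both TPM scales. Without single libraries, the median ranged from -1.10 to -0.61 for enteric neuron and glia and from -0.41 to -0.14 for epithelial identity. The short-share covariate reversed H2-Ob (-0.45), Erap1 (0.17), S100a9 (-1.95), Cxcl1 (-0.72), Cd3d (-0.43), Ms4a1 (-0.50), Kit (0.42), Aim2 (-0.13), Bub1b (0.16), Scnn1a (0.046), Ephb3 (0.072), Nos1 (0.051), Cdh1 (0.13) and Lcn2 (-0.093). The length offset reversed Rbp2 (-0.14), and without week 8 replicate 2 also Prdm1 (0.048), mt-Nd1 (-0.10), Tff3 (-0.19) and Rbp2 (-0.16). No other alternative reversed a gene named by rule.

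Replicate numbers did not pair the mice: deviations of same-numbered libraries correlated at -0.10, 0.26 and 0.05. With the replicate block, 0 genes passed, 2035 were higher and 2887 lower at an unadjusted p under 0.05, and the smallest adjusted p was 0.0516. The lipocalin difference of 1480.2 ng/g was 990.7 to 2056 ng/g without single mice (exact permutation p = 0.2, the smallest possible) and 1.05 on the log10 scale (exact permutation p = 0.1).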

Other observations

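Ribosomal, respiratory and splicing genes were counted in 4 lists added after the values were seen; in the first 3, most members were higher at week 12 at an unadjusted p under 0.05. Of 83 cytosolic ribosomal protein genes, 73 were higher at an unadjusted p under 0.05 and none lower, with a median log2 fold change of 1.02 against -0.07 over all genes. Their transcripts are short, with a median of 679 bases, and with the length offset 30 were higher and 6 lower, with a median of 0.25. Of 78 nuclear genes for oxidative phosphorylation subunits, 56 were higher and 3 lower, with a median of 0.80, and with the offset 18 were higher and 11 lower, with a median of 0.02. Mitochondrial ribosomal protein genes were higher in 51 of 75 cases and lower in none, with a median of 0.66. With the offset 20 were higher and 3 lower, with a median of 0.14.

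Of 28 SR splicing factors and nuclear speckle proteins, 11 were higher and 2 lower, with a median of 0.37. With the length offset 18 were higher and 1 lower, and the median was 0.45. Over all genes, 10.3% were higher and 10.1% lower with the offset.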
